A study of Mus musculus with 16 samples.

Results

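The genes described here are 10 transcripts that enteroendocrine cells of the gut are known for: the granins Chga and Chgb, the peptide hormones Sct, Gcg, Cck, Gip, Sst, Ghrl and Tac1, and the serotonin enzyme Tph1. They were taken by gene symbol, and all 10 were found in both deposited tables, among 20790 genes listed at day 2 and 20658 at day 4. The libraries came from epithelial organoids grown from jejunum of C57BL/6 background, all with the genotype Villin-CreERT2; Hnf4a flox/flox. Organoids of the 4OHT groups received 0.5 µM 4-hydroxytamoxifen for 24 h and were then split. The drug activates the recombinase CreERT2, which deletes the floxed part of Hnf4a. Organoids of the DMSO groups carry the same alleles and received the solvent. Each of the 4 groups, formed by treatment (DMSO or 4OHT) and time (day 2 or day 4), held 4 libraries. The Villin promoter drives the recombinase throughout the intestinal epithelium, so enteroendocrine cells are not targeted apart from the other epithelial cells. The labels' protocol describes a harvest at day 4 only, and day 2 is used as the labels name it.

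Enteroendocrine cells are scattered hormone-producing cells of the intestinal epithelium that arise from crypt progenitors through the transcription factor Neurog3. They store peptides in dense-core granules, in which the granins are major soluble proteins, and release them in response to nutrients. Each hormone marks a subset of these cells: Gip cells (K cells) and Cck cells (I cells) of the upper intestine, Gcg cells (L cells) that make GLP-1, Sst cells (D cells), Ghrl cells (X cells), and enterochromaffin cells that make serotonin with Tph1 and often substance P from Tac1.

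Library totals were 63.8 to 93.3 M counts. Hnf4a, the targeted gene, averaged 1018 CPM ± 30.7 (SD, n = 4) in DMSO and 509 CPM ± 22.2 (SD, n = 4) in 4OHT at day 2, where CPM is the read count scaled to library size, with TMM factors over the 16 libraries. By day 4 it averaged 970.1 CPM ± 6.95 (SD, n = 4) in DMSO and 471 CPM ± 16.1 (SD, n = 4) in 4OHT. Its log2 fold change was -0.99 ± 0.05 (SE) at day 2 and -1.04 ± 0.05 (SE) at day 4, with edgeR adjusted p-values of 8.25e-08 and 1.14e-06, so about the same level of Hnf4a transcript remained at both days. The counts cover the whole gene, so how completely it was recombined cannot be read from them. The labels do not say that replicates are separate animals or cultures, so the spread behind each p-value may be a technical one. In these bulk libraries fewer cells of a type and less RNA per cell cannot be told apart.

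All 10 transcripts were present in every library, from 50 Sst reads in 1 DMSO library at day 2 to 25128 Chgb reads in 1 DMSO library at day 4. Ordered by CPM per kb of annotated exon, Chgb was highest in each of the 4 groups, at 68.4 ± 3.32 (SD, n = 4) in DMSO at day 2. Gip followed at 29.2 ± 4.95, then Chga at 17.0 ± 1.69, Cck at 9.80 ± 0.449 and Sct at 7.59 ± 1.07 in the same group. Gcg at 5.23 ± 0.773 and Ghrl at 4.91 ± 1.35 had overlapping ranges, as did Ghrl and Tac1, at 2.97 ± 0.315. Sst at 1.54 ± 0.682 and Tph1 at 1.36 ± 0.0913 closed the order with overlapping ranges. In the 4OHT libraries of day 4, Ghrl came next after Cck at 9.41 ± 0.561 CPM per kb, above Sct at 7.96 ± 0.597, and their ranges did not overlap. There Sst, at 3.76 ± 0.432, overlapped in range with Tac1 at 3.41 ± 0.278. The length is the union of all annotated exons, 6172 bases for Tph1 and 645 for Sct, and which exons are used was not measured.

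**Figure D1:**
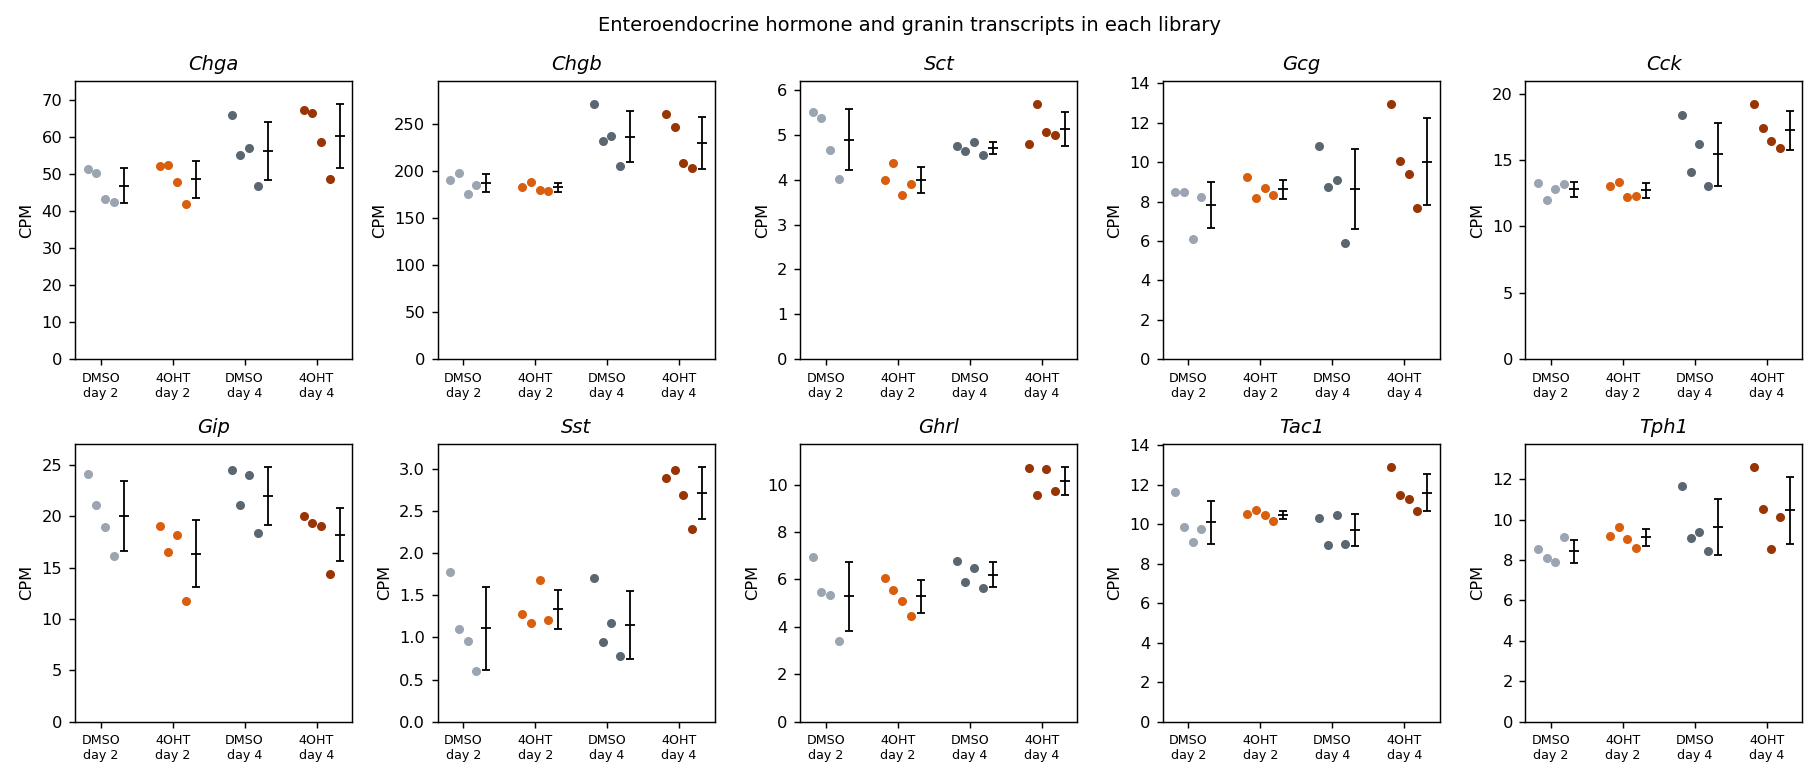
CPM (TMM-scaled) of the 10 genes in each of the 16 libraries, with 1 panel per gene and a linear axis from 0. Points are libraries, placed from left to right by replicate number, and the bar beside them is the mean ± SD of 4 libraries. For Sst the 4OHT libraries of day 4 sit between 2.28 and 2.99 CPM, above all other libraries, and for Ghrl between 9.55 and 10.7 CPM.

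After treatment with 4OHT, 2 hormone transcripts rose by day 4, Sst 2.34-fold and Ghrl 1.64-fold. Tac1 rose 1.20-fold, with a call that most changes of setting lost but a fit with same-numbered libraries paired kept. The granins Chga and Chgb did not pass the test at either day. At day 2 none of the 10 passed in edgeR's quasi-likelihood test with Benjamini-Hochberg adjustment over all genes tested and a threshold of 0.05, with 1 gene at an unadjusted p under 0.05. DESeq2 called 1 of them lower, Sct, and 2460 of 20790 genes lower in all. For comparison, 16.9% of all genes tested were called higher and 14.3% lower at day 2. At day 4, 3 of the 10 were called higher and 0 lower, where 13.7% of all genes were called higher and 11.1% lower. Since same-numbered libraries of day 4 deviated together (a pairing seen in the data), the fit was also made with a replicate block, in which 5 of the 10 were called higher and 1 lower, beside 22.8% and 22.2% of all genes. The median log2 fold change of the 10 was 0.04 at day 2 and 0.15 at day 4, beside medians of 0.00 and -0.01 over all genes tested.

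Chga (ENSMUSG00000021194, chr12:102554969-102565028, plus strand, GRCm38) is a granule protein widely used as a marker of endocrine cells. It stood at 51.5, 50.2, 43.4 and 42.3 CPM in the DMSO libraries of day 2 and at 52.3, 52.5, 47.7 and 41.9 CPM in the 4OHT libraries. At day 4 the DMSO libraries held 65.9, 55.2, 56.9 and 46.7 CPM of Chga and the 4OHT libraries 67.2, 66.5, 58.6 and 48.6 CPM. The groups overlapped at both days, and libraries of the same number lay at similar levels in both arms of day 4, replicate 1 highest and replicate 4 lowest. The log2 fold change of Chga was 0.06 (95% interval -0.12 to 0.24) at day 2 and 0.10 (-0.17 to 0.37) at day 4, with edgeR adjusted p-values of 0.600 and 0.595. The day 4 adjusted p was 0.0595 with the replicate block.

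Chgb (ENSMUSG00000027350, chr2:132781278-132795079, plus strand), the other granin, ranged from 176 to 198 CPM in DMSO and from 179 to 189 CPM in 4OHT at day 2. The day 4 values ran from 205 to 272 CPM in DMSO and from 204 to 261 CPM in 4OHT, again with overlapping groups. Its log2 fold change was -0.02 (-0.12 to 0.07) at day 2 and -0.04 (-0.26 to 0.19) at day 4, with edgeR adjusted p-values of 0.722 and 0.818. Chgb carries the most reads of the 10, and its day 2 interval keeps a treatment difference within 0.12 on the log2 scale.

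Sst (ENSMUSG00000004366, chr16:23889573-23890958, minus strand) encodes somatostatin, a peptide that inhibits the release of other gut hormones. In the DMSO libraries of day 2 it stood at 1.77, 1.10, 0.953 and 0.601 CPM and in the 4OHT libraries at 1.28, 1.17, 1.68 and 1.20 CPM. The day 2 groups overlapped fully, and the log2 fold change of 0.27 ± 0.26 (SE) had an edgeR adjusted p of 0.456. In the DMSO libraries of day 4 Sst stood at 1.70, 0.942, 1.17 and 0.780 CPM and in the 4OHT libraries at 2.88, 2.99, 2.69 and 2.28 CPM. Each 4OHT library of day 4 was above each DMSO library. The log2 fold change was 1.23 ± 0.22 (SE), an edgeR adjusted p of 0.00271. Over the 16 alternative settings the call held, with a log2 fold change of 1.08 to 1.49.

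The cAMP response element, TGACGTCA, is well known from the rodent somatostatin promoter, and the 250 bases before the RefSeq start (GRCm38.p6) hold it once in Sst. It is shown here because Sst had the largest treatment difference of the 10; the 30 bases lie at chr16:23890874-23890903 on the minus strand, with the element in capitals, 48 bases before the start. GENCODE places the start of Sst further upstream, at base 23890958, so these bases lie inside the gene as GENCODE annotates it.
Sst: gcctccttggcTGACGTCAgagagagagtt
Searched on both strands, the element occurs in the window of 2 of the 10 genes, Sst and Chgb, and in 1.55% of 32851 RefSeq windows of the same length. Chgb was not called at either day.

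Ghrl (ENSMUSG00000064177, chr6:113716119-113719880, minus strand) encodes ghrelin, a peptide of the stomach and upper intestine that stimulates appetite. At day 2 its DMSO libraries held 6.97, 5.45, 5.34 and 3.43 CPM and its 4OHT libraries 6.07, 5.55, 5.09 and 4.45 CPM. The 4OHT libraries lay within the range of the DMSO libraries, and the log2 fold change was 0.01 ± 0.17 (SE), with an edgeR adjusted p of 0.975. By day 4 the DMSO libraries held 6.80, 5.89, 6.47 and 5.66 CPM of Ghrl and the 4OHT libraries 10.7, 9.55, 10.6 and 9.71 CPM. The groups of day 4 did not overlap, and the lowest 4OHT library was above each of the 12 other libraries. The log2 fold change was 0.71 ± 0.08 (SE), with an edgeR adjusted p of 0.000300, and lay between 0.66 and 0.76 over the 16 alternatives, each of which kept the call. Ghrl is the one gene of the 10 whose exons overlap others: of its 1079 exon bases, 169 are shared with Gm44033 and 3 with Gm26982, both on the opposite strand, and the strand setting of the counting is not given in the sources used here.

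Ghrl has 4 RefSeq windows, and the one whose start lies nearest the GENCODE start was searched. The 250 bases before that start, at chr6:113719912-113720161 on the minus strand (GRCm38.p6), are shown because Ghrl rose together with Sst at day 4. Capitals mark the E-box CANNTG, the core bound by basic helix-loop-helix factors such as Neurog3 and Neurod1.
Ghrl: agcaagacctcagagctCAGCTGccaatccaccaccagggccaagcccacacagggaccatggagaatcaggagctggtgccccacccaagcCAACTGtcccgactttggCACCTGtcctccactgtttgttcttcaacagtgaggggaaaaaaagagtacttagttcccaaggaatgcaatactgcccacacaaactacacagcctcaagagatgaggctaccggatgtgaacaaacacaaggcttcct
The window holds 3 E-boxes and no cAMP response element. E-boxes are common letters: 66.2% of all windows hold at least 1, and 9 of the 10 genes do. The letters CAAAGTCCA, a form of the HNF4 binding motif, were in none of the 10 windows and in 0.384% of all windows.

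Gip (ENSMUSG00000014351, chr11:96024545-96030831, plus strand) encodes the incretin of the K cells, which promotes insulin release after a meal. At day 2 its DMSO libraries held 24.2, 21.1, 19.0 and 16.1 CPM and its 4OHT libraries 19.0, 16.5, 18.1 and 11.8 CPM. The day 4 DMSO libraries held 24.5, 21.1, 24.0 and 18.3 CPM of Gip and the 4OHT libraries 20.04, 19.3, 19.1 and 14.4 CPM. The groups overlapped at both days, while in each same-numbered pair of day 4 the 4OHT library was the lower. The log2 fold change was -0.29 ± 0.15 (SE) at day 2 and -0.27 ± 0.12 (SE) at day 4, with edgeR adjusted p-values of 0.161 and 0.126. With the replicate block of day 4 the log2 fold change was -0.27 ± 0.05 (SE) and the adjusted p was 0.000660.

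The 250 bases before the RefSeq start of Gip, at chr11:96024295-96024544 on the plus strand (GRCm38.p6), are shown as the window of the 1 gene called lower with the block. Capitals mark GATAA, the core of the motif of GATA factors.
Gip: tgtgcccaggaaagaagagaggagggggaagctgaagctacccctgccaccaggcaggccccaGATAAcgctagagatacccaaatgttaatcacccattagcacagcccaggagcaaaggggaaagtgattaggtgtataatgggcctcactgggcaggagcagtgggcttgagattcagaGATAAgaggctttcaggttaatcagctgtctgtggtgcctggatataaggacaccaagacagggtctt
The motif occurs at 187 and 68 bases before the start. On both strands, GATAA was found in the windows of Gip, Cck and Tac1 and in 22.6% of all windows.

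Sct (ENSMUSG00000038580, chr7:141278330-141279133, minus strand) encodes secretin, which stimulates bicarbonate secretion by the pancreas. Its DMSO libraries of day 2 held 5.50, 5.39, 4.66 and 4.03 CPM and its 4OHT libraries 4.00, 4.37, 3.67 and 3.90 CPM. By day 4 the DMSO libraries held 4.76, 4.64, 4.85 and 4.54 CPM of Sct and the 4OHT libraries 4.80, 5.69, 5.06 and 4.99 CPM. The groups overlapped at both days, with most 4OHT libraries on the low side at day 2 and on the high side at day 4. The log2 fold change was -0.28 ± 0.11 (SE) at day 2 and 0.13 ± 0.08 (SE) at day 4, with edgeR adjusted p-values of 0.0601 and 0.300. The day 2 adjusted p was 0.00899 without DMSO replicate 4, 0.0488 without 4OHT replicate 2 and 0.0339 in DESeq2, all with the lower level in 4OHT.

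Tac1 (ENSMUSG00000061762, chr6:7554879-7565834, plus strand) encodes the precursor of substance P and neurokinin A, found in enterochromaffin cells and in enteric neurons. At day 4 its DMSO libraries held 10.3, 8.96, 10.5 and 9.03 CPM and its 4OHT libraries 12.9, 11.5, 11.3 and 10.7 CPM. The groups did not overlap, by a small margin. The log2 fold change was 0.26 ± 0.08 (SE), with an edgeR adjusted p of 0.0453, and 0.00330 with the replicate block. Without the block the call was lost when any library but 4OHT replicate 4 was left out, with adjusted p-values from 0.0513 without DMSO replicate 3 to 0.118 without DMSO replicate 4. At day 2 the log2 fold change of Tac1 was 0.06 ± 0.07 (SE), with an adjusted p of 0.541.

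Gcg, the precursor of GLP-1 and glucagon, ranged from 5.88 to 10.8 CPM in DMSO and from 7.69 to 12.96 CPM in 4OHT at day 4. Cck, which encodes cholecystokinin, a trigger of gall bladder contraction, ranged from 13.1 to 18.4 CPM in DMSO and from 15.9 to 19.2 CPM in 4OHT at day 4. Both had overlapping groups, and edgeR adjusted p-values of 0.473 for Gcg and 0.315 for Cck. With the replicate block the log2 fold change of Gcg was 0.22 with an adjusted p of 0.0163, and that of Cck 0.17 with an adjusted p of 0.0332. At day 2 neither passed, with log2 fold changes of 0.15 for Gcg and 0.00 for Cck.

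Tph1, the rate-limiting enzyme of serotonin synthesis outside the brain, ranged from 7.87 to 9.15 CPM in DMSO and from 8.60 to 9.64 CPM in 4OHT at day 2. The day 4 values ran from 8.45 to 11.6 CPM in DMSO and from 8.56 to 12.6 CPM in 4OHT. Its log2 fold change was 0.13 (-0.02 to 0.27) at day 2 and 0.12 (-0.17 to 0.41) at day 4, with edgeR adjusted p-values of 0.173 and 0.560.

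**Figure D2:**
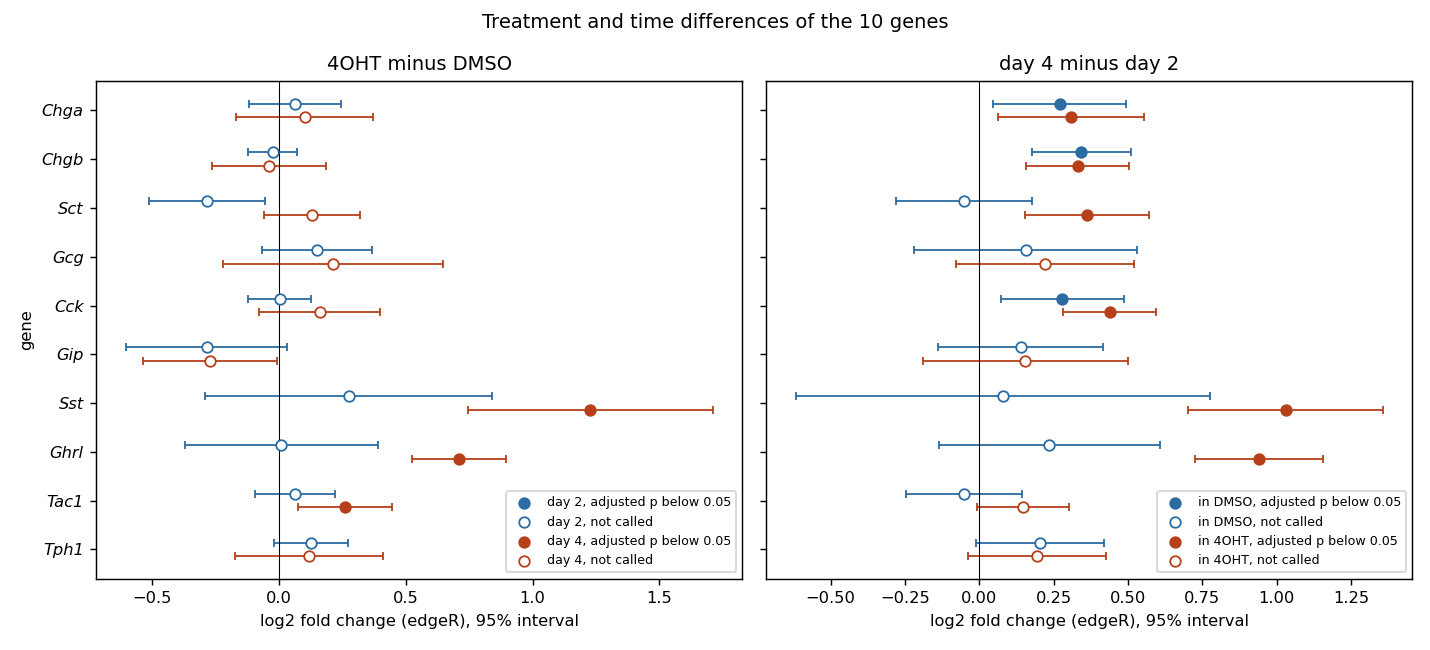
Log2 fold change from edgeR with its 95% interval for each of the 10 genes, on the left 4OHT minus DMSO at day 2 and at day 4, on the right day 4 minus day 2 in DMSO and in 4OHT. Filled points have an adjusted p below 0.05 in the fit without a replicate block. Sst and Ghrl lie far to the right at day 4 (1.23 and 0.71) and in the time comparison of 4OHT (1.03 and 0.94), while Gip and Sct lie left of 0 at day 2 (-0.29 and -0.28).

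Reads of each hormone per 100 Chga reads of the same library give the hormone relative to an endocrine marker transcript, with no library scaling. Which endocrine cells hold the Chga reads was not measured, so the ratio is not a level per endocrine cell. These ratios are described without a test, for 4 hormones whose treatment values stood out above, and reads per 100 Chga reads are not corrected for gene length. At day 4 Sst ran from 1.67 to 2.57 reads per 100 Chga reads in DMSO and from 4.29 to 4.69 in 4OHT, and Ghrl from 10.3 to 12.1 in DMSO and from 14.4 to 19.96 in 4OHT. Gip ran from 37.1 to 42.2 in DMSO and from 29.03 to 32.5 in 4OHT at day 4. For these 3 hormones the day 4 groups did not overlap, so Gip, whose CPM groups overlapped, was separated relative to Chga. Chga itself had a day 4 log2 fold change of 0.10 in 4OHT and was not called. How many of all genes are separated relative to Chga in this way was not counted. At day 2 Gip ran from 38.02 to 46.9 reads per 100 Chga reads in DMSO and from 28.2 to 37.99 in 4OHT, which left the groups just apart. Sct ran from 9.51 to 10.8 in DMSO and from 7.65 to 9.32 in 4OHT at day 2, and the groups were apart as well. At day 4 Sct overlapped, with 7.21 to 9.73 in DMSO and 7.14 to 10.3 in 4OHT. Tac1 was called higher at day 4 but is not among the 4. Its ratios at day 4 overlapped, with 15.6 to 19.3 in DMSO and 17.3 to 21.98 in 4OHT.

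**Figure D3:**
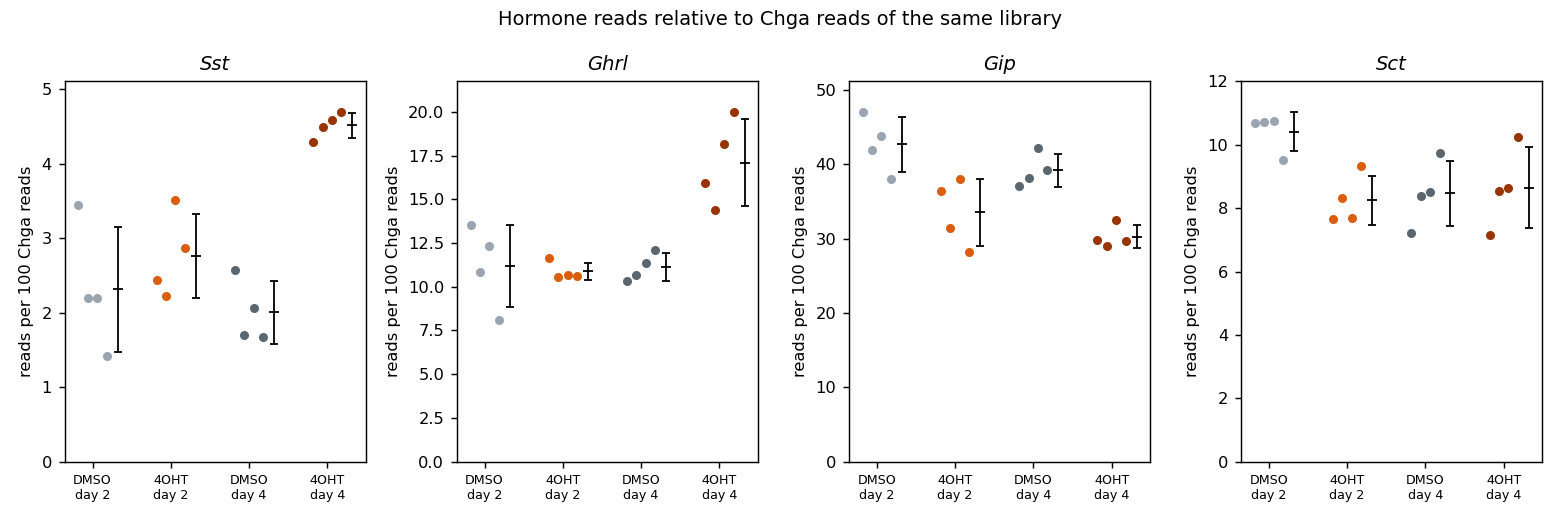
Reads of Sst, Ghrl, Gip and Sct per 100 Chga reads of the same library, for each of the 16 libraries, with the mean ± SD of 4 libraries beside the points and axes from 0. At day 4 the 4OHT libraries hold 4.29 to 4.69 Sst reads per 100 Chga reads against 1.67 to 2.57 in DMSO, and 29.03 to 32.5 Gip reads against 37.1 to 42.2.

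From day 2 to day 4, Chgb rose in both arms, and the number of the 10 genes called higher in DMSO was near the share of all genes. In DMSO, 3 of the 10 were called higher at day 4, Chgb, Cck and Chga, and 0 lower, where 28.7% of all genes were called higher and 24.8% lower. In 4OHT, 6 were called higher, the same 3 with Sct, Sst and Ghrl, and 0 lower, beside 25.9% and 23.5% of all genes. These comparisons share their libraries with the treatment comparisons. The median log2 difference of the 10 was 0.18 in DMSO and 0.32 in 4OHT, beside 0.03 and 0.01 over all genes tested.

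Chgb was higher at day 4 by a log2 fold change of 0.34 ± 0.08 (SE) in DMSO and 0.33 ± 0.08 (SE) in 4OHT, with edgeR adjusted p-values of 0.00212 and 0.00531. Chga was higher by 0.27 ± 0.10 (SE) and 0.31 ± 0.11 (SE), with adjusted p-values of 0.0417 and 0.0393, both of which several settings lost. In DMSO the Chga call was lost without replicate 3 or 4 of day 2 or without replicate 1, 2 or 3 of day 4, up to an adjusted p of 0.141. In 4OHT the same 5 replicate numbers of those days lost the call when left out, with an adjusted p up to 0.114. Cck was higher by 0.28 ± 0.10 (SE) in DMSO and 0.44 ± 0.07 (SE) in 4OHT, with adjusted p-values of 0.0254 and 0.000540, and the DMSO call was lost without replicate 2, 3 or 4 of day 2 or replicate 1 or 3 of day 4, up to 0.0937.

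In the 4OHT libraries Sst was called higher at day 4, by a log2 fold change of 1.03 ± 0.15 (SE) with an edgeR adjusted p of 0.000254. Ghrl was higher by 0.94 ± 0.10 (SE), with an adjusted p of 3.07e-05, and Sct by 0.36 ± 0.09 (SE), with an adjusted p of 0.00861. In DMSO the same differences were 0.08 ± 0.32 for Sst, 0.24 ± 0.17 for Ghrl and -0.05 ± 0.11 for Sct, with adjusted p-values of 0.853, 0.267 and 0.698. Ghrl passed in DMSO without replicate 1 of day 2, with an adjusted p of 0.0413.

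Whether the treatment difference itself changed between the days was tested as an interaction over the 16 libraries. None of the 10 passed in edgeR, with 3 at an unadjusted p under 0.05, and DESeq2 called 1, Ghrl. Over all genes edgeR called 1.20% with a positive and 0.476% with a negative interaction, and DESeq2 called 595 of 19964 with a positive one. Ghrl had an interaction of 0.71 ± 0.21 (SE) on the log2 scale with an adjusted p of 0.0926 (0.0216 in DESeq2), Sct of 0.42 ± 0.14 (SE) with 0.125, and Sst of 0.96 ± 0.37 (SE) with 0.189. Without DMSO replicate 4 of day 2, which was the lowest of its group in Sst, Ghrl, Sct, Gip and Chga, the adjusted p was 0.00995 for Ghrl and 0.0310 for Sct. With a replicate block in the interaction fit the adjusted p was 0.00317 for Ghrl, 0.0367 for Sct and 0.0759 for Sst, although the numbers did not pair the libraries of day 2. The difference between days was therefore past the threshold for Ghrl and Sct in some fits and not in others, and for Sst in none of these.

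At day 4 the same libraries tended to be the extremes for many of the 10 genes. In DMSO, replicate 1 was highest of its group in 8 of the 10 genes and replicate 4 lowest in 9. In 4OHT, replicate 1 was highest in 8 and replicate 4 lowest in 7. The extremes were more spread at day 2: in DMSO replicate 1 was highest in 7 genes and replicates 3 and 4 lowest in 4 and 5, and in 4OHT replicate 2 was highest in 6 and replicate 4 lowest in 6. The sum of the 10 genes ran from 318 to 426 CPM in DMSO and from 328 to 424 CPM in 4OHT at day 4. At day 2 the sums ran from 285 to 322 CPM in DMSO and from 282 to 311 CPM in 4OHT. The summed level therefore overlapped between treatments at both days, with Chgb as its largest part.

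Pam, Rab3d and Stx1a rose at both days among genes that build and release the granule, while the share of the list called higher was near that of all genes. Of 22 tested genes of granule formation and prohormone processing, 4 were called higher and 1 lower at day 2 (16.9% and 14.3% of all genes), and 4 higher and 0 lower at day 4 (13.7% and 11.1% of all genes). Pam, which amidates the ends of peptide hormones, rose by 0.85 ± 0.07 (SE) on the log2 scale at day 2 and 0.68 ± 0.09 (SE) at day 4, with edgeR adjusted p-values of 4.55e-06 and 0.000696. The vesicle GTPase Rab3d rose by 0.23 and 0.26 and the plasma membrane fusion protein Stx1a by 0.23 and 0.32. Cplx2, a regulator of vesicle fusion, fell by 0.51 on the log2 scale at day 2 (adjusted p of 0.00188) and had a log2 fold change of -0.28 with an adjusted p of 0.0715 at day 4, where the block called it lower (adjusted p of 0.000870). Vamp2, with the next highest level of the list, had adjusted p-values of 0.0831 and 0.527. Rab3d, the highest, averaged 104.9 to 140.8 CPM over the groups, above Chga, and the part of other cell types was not tested. The list's median log2 fold change was 0.10 at day 2 and 0.04 at day 4, and with the day 4 block 8 genes were called higher and 3 lower, beside 22.8% and 22.2% of all genes.

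Of the 16 other gut peptide hormones listed for comparison, 4 were tested at day 2 and 5 at day 4, and Pyy was called higher at both days. It was the 1 gene called higher at each day, with 0 lower. Of all genes 16.9% were called higher and 14.3% lower at day 2, and 13.7% and 11.1% at day 4. With the day 4 block 2 were called higher and 0 lower, beside 22.8% and 22.2% of all genes. Pyy, a partner hormone of GLP-1 in L cells, rose from 0.966 CPM ± 0.148 to 1.40 CPM ± 0.163 (SD, n = 4) at day 2 and from 1.19 CPM ± 0.253 to 1.94 CPM ± 0.0664 (SD, n = 4) at day 4. Its log2 fold change was 0.55 ± 0.14 (SE) and 0.70 ± 0.15 (SE), with edgeR adjusted p-values of 0.0111 and 0.00829. Nmb, neuromedin B, had log2 fold changes of 0.03 and 0.65, with adjusted p-values of 0.929 and 0.110, and was called with the day 4 block (0.0186). It shares 163 exon bases with Sec11a.

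Around serotonin, which Tph1 begins, 2 of 11 tested genes were called higher and 4 lower at day 2, and 3 higher and 2 lower at day 4. Of all genes 16.9% were called higher and 14.3% lower at day 2, and 13.7% and 11.1% at day 4. Gch1, which starts the synthesis of the cofactor of Tph1, rose by 0.40 ± 0.04 (SE) and 0.79 ± 0.20 (SE) on the log2 scale, with edgeR adjusted p-values of 2.34e-05 and 0.0163. Qdpr, which regenerates that cofactor, fell by 0.28 at both days (adjusted p of 0.00257 and 0.00389). Slc6a4, the serotonin transporter, fell by 0.78 on the log2 scale at day 2 and by 0.52 at day 4, with adjusted p-values of 0.000473 and 0.0209. Maoa, which degrades serotonin, fell by 0.40 at day 2 (adjusted p of 0.00358) and had an adjusted p of 0.272 at day 4. Ddc, which completes serotonin synthesis, had a log2 fold change of -0.21 with an adjusted p of 0.0585 at day 2 and rose by 0.20 at day 4 (adjusted p of 0.0151). The interaction passed for Ddc (adjusted p of 0.0386) and Maoa (adjusted p of 0.0236), and with the day 4 block 3 genes were called higher and 3 lower, beside 22.8% and 22.2% of all genes. Enterocytes also express Ddc, Maoa and Slc6a4, and their part in these values was not tested.

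Neurog3, Sox4 and Mnx1, transcription factors of the lineage, fell at both days. Of 21 factors tested, 2 were called higher and 6 lower at day 2, and 1 higher and 4 lower at day 4. The shares of all genes were 16.9% higher and 14.3% lower at day 2, and 13.7% and 11.1% at day 4. Neurog3, which starts the lineage, fell from 9.46 CPM ± 0.790 to 6.52 CPM ± 0.626 (SD, n = 4) at day 2 and from 14.3 CPM ± 0.671 to 11.5 CPM ± 0.955 (SD, n = 4) at day 4. Its log2 fold change was -0.52 ± 0.08 (SE) and -0.32 ± 0.07 (SE), with edgeR adjusted p-values of 0.000586 and 0.00923, and 273 of its exon bases are shared with Fam241b on the opposite strand. Sox4, a progenitor factor, fell by 0.58 and 0.30, and shares 2616 exon bases with the opposite-strand Gm26735. Mnx1, a factor of enterochromaffin cells, fell by 0.32 and 0.41 on the log2 scale, and Foxa1 rose by 0.64 and 0.50. The list's median was -0.21 at day 2 and -0.09 at day 4, and with the day 4 block 2 were called higher and 6 lower, beside 22.8% and 22.2% of all genes.

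Among sensors of nutrients and other stimuli, 3 of 10 tested genes were called higher and 1 lower at day 2, and 5 of 12 higher and 1 lower at day 4. Over all genes 16.9% were higher and 14.3% lower at day 2, and 13.7% and 11.1% at day 4. The fatty acid receptor Ffar2 rose from 5.68 CPM ± 0.612 to 12.5 CPM ± 0.590 (SD, n = 4) at day 4, a log2 fold change of 1.14 ± 0.08 (SE) with an edgeR adjusted p of 2.23e-05, after 0.61 at day 2. Ffar4 rose by 0.69 and 0.70, and the channel subunit Abcc8 by 1.12 and 1.17 on the log2 scale. Slc5a1, the glucose carrier that enterocytes also express, fell by 0.44 at day 2 (adjusted p of 0.00897) and had an adjusted p of 0.666 at day 4. Lpar5, with the next highest level, had adjusted p-values of 0.445 and 0.864.

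Of the 20 listed receptors that these hormones act on, 6 were tested at day 2 and 7 at day 4. At day 2, 1 was called higher and 1 lower (16.9% and 14.3% of all genes). At day 4, 2 were called higher and 0 lower (13.7% and 11.1% of all genes). The somatostatin receptor Sstr2 rose from 1.08 CPM ± 0.0840 to 1.77 CPM ± 0.236 (SD, n = 4) at day 2 and from 1.17 CPM ± 0.189 to 2.53 CPM ± 0.464 (SD, n = 4) at day 4, with edgeR adjusted p-values of 0.000910 and 0.00127. Sstr5 fell by 0.58 on the log2 scale at day 2 (adjusted p of 0.0416) and had an adjusted p of 0.400 at day 4. The cholecystokinin receptor Cckar had 0 reads in each DMSO library of day 4 and 28, 10, 15 and 11 in the 4OHT libraries. Against a floor of 3 counts over the DMSO group this is at least 21.1-fold higher, on few reads. Cckar was not among the genes listed at day 2. The serotonin receptor Htr4 had log2 fold changes of 0.30 and -0.47, with adjusted p-values of 0.196 and 0.0834, and was called lower with the day 4 block (0.00336). With that block 2 receptors were called higher and 2 lower, beside 22.8% and 22.2% of all genes.

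**Figure D4:**
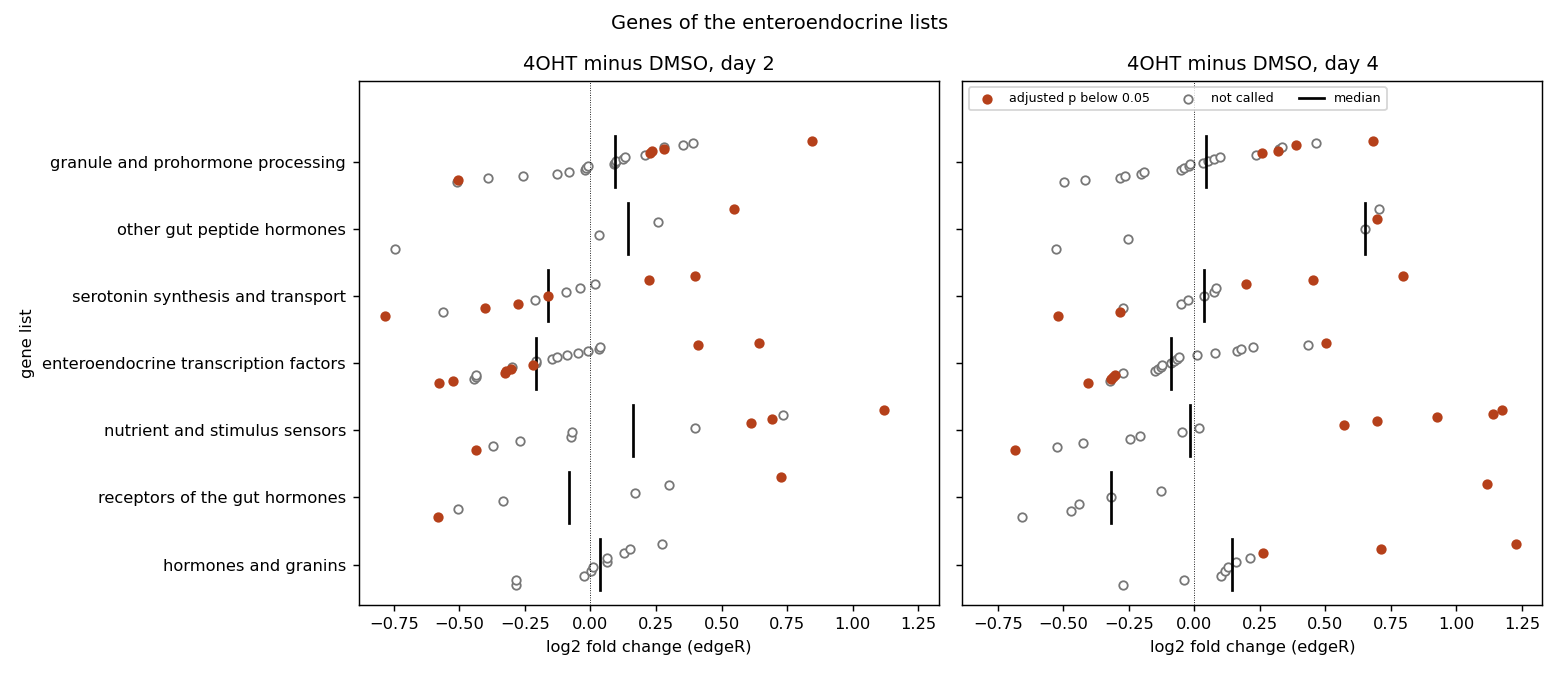
Log2 fold change from edgeR, 4OHT minus DMSO, of each tested gene of the 6 enteroendocrine lists and of the 10 hormones and granins, at day 2 and day 4. Filled points have an adjusted p below 0.05 in the fit without a replicate block, and the bars are list medians. Cckar enters the day 4 median and is not drawn, because its DMSO libraries are all at 0. The 10 genes have medians of 0.04 and 0.15, with Sst and Ghrl apart from the others at day 4.

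Many markers of other epithelial types moved with the treatment as well, and the part of these cells in the hormone and list values was not tested. The counts below stand beside 16.9% of all genes called higher and 14.3% lower at day 2, and 13.7% and 11.1% at day 4. Goblet markers were called higher in 6 of 7 genes at day 2 and 5 of 7 at day 4, with summed levels of 3987 to 5164 CPM in DMSO and 7294 to 9253 CPM in 4OHT at day 4. Stem markers were called lower in 5 of 6 and 6 of 6, with day 4 sums of 3780 to 4180 CPM in DMSO and 2572 to 3081 CPM in 4OHT. Paneth markers were called lower in 5 of 8 and 4 of 8, with 1 higher at day 4, and day 4 sums of 2562 to 3169 CPM in DMSO and 2301 to 2505 CPM in 4OHT. Enterocyte markers were called lower in 5 of 8 at day 2 and higher in 2 of 8 at day 4, with overlapping sums at both days. Tuft markers were called higher in 1 of 7 and 3 of 7 tested, with overlapping sums, and the day 2 count was near the share of all genes.

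Sst and Tac1 are also expressed by enteric neurons, whose markers were measured for that reason. Of 8 neuronal and glial markers 5 were listed in both tables, and the neuronal Elavl4 averaged 0.0233 CPM in DMSO and 0.0216 CPM in 4OHT at day 4. The summed level of the 5 was 11.2 to 12.3 CPM in DMSO and 12.6 to 13.9 CPM in 4OHT at day 4, where Ret was called higher by 0.34 and Tubb3 lower by 0.50 on the log2 scale. Of 6 stromal markers 3 were listed in both tables, with sums of 6.28 to 9.55 CPM over the 16 libraries and Col1a1 called higher at both days, and of 7 immune and endothelial markers 4 were. Their sums were 3.17 to 3.77 CPM in DMSO and 2.21 to 2.81 CPM in 4OHT at day 2, without overlap, and 2.98 to 3.61 CPM and 2.99 to 3.78 CPM at day 4.

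The pattern most like that of Chga was sought among 9683 genes with a mean log2 CPM of at least 3, as the root mean square difference of centred log2 CPM over the 16 libraries. The 5 nearest were Fam117a at 0.100, Vamp1 at 0.103, Clk1 at 0.104, Uaca at 0.111 and Gm42427 at 0.114, where Chga itself varied by 0.215 about its mean. Vamp1 is a vesicle fusion protein, and the others have no role named here. All 5 were on average higher at day 4 than at day 2 in both arms, as Chga was, which follows from choosing them by their likeness to Chga.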

How the data were processed

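Poly(A) RNA of 16 samples of mouse jejunal organoids was sequenced; per the labels' protocols the preparation was directional and used 250 ng of RNA. STAR 2.4.0f1, bcl2fastq 1.8.4 and build GRCm38 are named in the submitters' processing notes; the counting tool and its strand setting are not named there, in the labels or in the file headers. The authors deposited 1 table per day with whole-number read counts per gene, a normalized score per library that was not used, and their own log2 fold changes and p-values from edgeR and DESeq. In the authors' deposited table the edgeR adjusted p was under 0.05 for 1 of the 10 genes at day 2 (Sct) and 2 at day 4 (Sst and Ghrl). Its DESeq adjusted p was under 0.05 for 0 at day 2 (Sct at 0.083) and 2 at day 4. Each table lists genes with at least 10 reads over its 8 libraries, and 14 symbols rewritten as dates at day 4 were replaced through their gene ID.

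In R 4.3.3 with edgeR 4.0.16 and limma 3.58.1, the deposited counts were filtered by filterByExpr, scaled by TMM and put through the robust quasi-likelihood test. P-values were Benjamini-Hochberg adjusted over all genes tested, at a threshold of 0.05. Treatment was tested within each day, time within each arm, and the interaction over 16 libraries. Each standard error is the log2 fold change over the root of F. Library totals of 63.8 to 93.3 M counts set the counting precision, and reads carry no molecular identifiers. At day 4, deviations from the group means correlated at 0.63 to 0.81 between same-numbered libraries, and for 8 of 8 libraries that partner was the closest. The numbers were therefore taken as pairs in a further day 4 fit with a replicate block, although the labels name no shared batch. The main fits, the fits with a library left out and the calls marked in the figures use no block. Every pair of libraries within a group differed by more than counting noise.

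The 10 genes, the lists and the named-gene rule were chosen with earlier results of these data known. From each list up to 4 genes with the smallest adjusted p and the 2 with the highest mean level are named; further called genes were named after their values were seen. Alternatives were DESeq2 1.42.0, DESeq2 size factors in edgeR, no filter, a replicate block, at least 1 CPM in 4 libraries, a threshold of 0.01, a fit over 16 libraries, thinning to the smallest total, and each library left out. Simulated counts of the day 4 comparison (15883 genes) gave calls for 30% of the 1.25-fold, 78% of the 1.5-fold and 82% of the 2-fold changes, and 7 of 150 calls were false. For the interaction the shares were 4%, 46% and 80%. The simulation changed 50 genes per fold and drew libraries without pairs. Far more genes were called at day 4 in the data, so these shares need not hold there. Gene coordinates and exon lengths are from GENCODE M21 and promoter windows from RefSeq (GRCm38.p6). For Ghrl with 4 windows and Tph1 with 2, only the window nearest the GENCODE start was searched, while the shares count all 32851 windows.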

Additional observations from a re-analysis of the deposited data

Results flagged for a closer look

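In 40 sets of 4 libraries (10 genes in 4 groups), 1 library lay far from the others by Dixon's criterion, where chance gives about 1 in 20. Gcg was at 6.10 CPM in DMSO replicate 3 of day 2, while the other 3 libraries of the group lay between 8.21 and 8.50 CPM.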

How the results depend on the processing

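Sst and Ghrl kept their day 4 calls under all 16 alternatives, as did Chgb in both time comparisons and Cck, Sct, Sst and Ghrl over time in 4OHT. Counts of the 10 genes called moved as follows. At day 2, 1 was called lower in DESeq2, in the fit over 16 libraries and in thinned libraries, 2 with the replicate block, and 0 to 1 with a library left out. All genes called lower at day 2 numbered 2460 of 20790 in DESeq2 and 2145 of 16597 in the fit over 16 libraries. They numbered 2168 of 15362 in thinned libraries and 2236 of 15897 with the block. At day 4 the block gave 5 higher and 1 lower, beside 22.8% and 22.2% of all genes. Over time in DMSO, 1 was called higher at an adjusted p under 0.01 and 1 to 4 with a library left out. At that threshold 3421 of 16088 genes were called higher. For the interaction, 1 was called higher in DESeq2, 2 with the block, and 0 to 2 with a library left out. All genes called higher for it numbered 595 of 19964 in DESeq2 and 1170 of 16597 with the block. All genes called numbered 2976 at day 2 and 2188 at day 4 at the threshold of 0.01, 7216 at day 4 with the block, and for the interaction 28 at 0.01, 836 in DESeq2, 1850 with the block and 94 to 727 with a library left out. The causes were not tested.

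Signs turned only for genes that were not called in that comparison. At day 2 the log2 fold change of Cck was -0.0054 in the fit over 16 libraries, -0.0076 with at least 1 CPM in 4 libraries, -0.011 with no filter, -0.0036 in DESeq2 and -0.0023 with its size factors. Ghrl at day 2 was -0.00080 in the fit over 16 libraries, -0.0014 with at least 1 CPM, -0.0045 with no filter and -0.045 thinned. The interaction of Chgb was 6.5e-05 and that of Tph1 0.0049 with at least 1 CPM, and Tph1 was 0.00067 with no filter. With a library left out, log2 fold changes at day 2 ran from -0.062 to 0.0018 for Chgb, -0.030 to 0.017 for Cck and -0.16 to 0.16 for Ghrl; at day 4 from -0.11 to 0.036 for Chgb; over time in DMSO from -0.19 to 0.38 for Sst and -0.12 to 0.015 for Tac1; and for the interaction from -0.040 to 0.14 for Chga, -0.076 to 0.064 for Chgb, -0.079 to 0.20 for Gcg, -0.11 to 0.12 for Gip and -0.11 to 0.10 for Tph1.

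Replicate numbers did not pair the libraries outside day 4: correlations were -0.11 to 0.47 at day 2, 0.07 to 0.19 over time in DMSO and -0.23 to 0.39 in 4OHT. The day 2 block called Gip (adjusted p of 0.00982) and Sct (0.0386), and the interaction block Ghrl and Sct, with the values given above. Single libraries also gave calls over time for Tph1 in DMSO without replicate 4 of day 4 (0.0486), and in 4OHT for Gcg (0.0189) and Tac1 (0.0395) without replicate 4 and Tph1 without replicate 3 of day 4 (0.0350). Sst, at 50 to 242 reads a library, has the widest intervals.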
